A study of Mus musculus with 8 samples.

Results

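The 35 mouse genes described here encode chaperones, folding enzymes, sensors and stress regulators of the endoplasmic reticulum (ER), the compartment in which secreted and membrane proteins fold. They were chosen by name from 20653 named genes with a probe on the array, and probes were matched to them through RefSeq accessions. All 35 had a probe, 43 probes in all, and all 35 passed a filter for signal well above background, set at a minimum of 4 arrays. The probe used for each gene was well above background on all 8. By role they fall into 5 sensors and transcription factors, 5 genes of the branch that runs through ATF4 and CHOP, 16 chaperones and folding enzymes, 5 genes of ER-associated degradation and 4 genes of the translocon, the channel through which new proteins enter the ER.

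RNA came from whole kidney of mice labelled male and 12 weeks old. Of the 8 samples, 4 were controls kept on standard chow and 4 came from mice fed cinacalcet hydrochloride, labelled at 1 mg per g body weight, with kidneys taken after 5 days. Cinacalcet sensitises the calcium-sensing receptor of parathyroid and kidney cells to extracellular calcium. The labels used here name no strain and do not tie each sample to a separate animal, and p-values therefore cover the spread among the 8 samples, which may be partly technical.

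Cells answer an overload of unfolded protein in the ER through 3 membrane sensors, in a programme called the unfolded protein response. PERK slows translation and lets ATF4 and then CHOP accumulate, IRE1 splices the Xbp1 mRNA so that it encodes an active transcription factor, and ATF6 is cut in the Golgi to release a transcription factor. ATF6 and spliced XBP1 raise chaperones, folding enzymes and degradation genes, while ATF4 and CHOP raise genes of amino acid supply, redox balance and recovery of translation. In the kidney, tubule cells make large amounts of transporters and secreted protein and depend on this machinery. The arrays measured mRNA only, so kinase activity, Xbp1 splicing and ATF6 cleavage were not measured.

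A level is given as log2 intensity relative to the 75th percentile of intensity on the same array, so 0 is the intensity at that percentile. A fold change is cinacalcet minus control on that log2 scale. Levels of different genes come from different probes and are not compared with each other. A gene is said to have fallen or risen where its limma p-value, adjusted by Benjamini-Hochberg over the 14205 genes tested, was under 0.05.

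The labels and the data disagreed on 3 arrays, control 4, cinacalcet 2 and cinacalcet 3. On these 0 of 4 Y-linked genes were well above background and Xist, a transcript of female cells, was at 0.46 to 0.95, although the labels call every mouse male. The other 5 arrays had 3 or 4 of those genes above background. They were also the 3 arrays with positive scores on the main axis of variation across genes (25.3 to 43.5, against -37.3 to -2.41). The main results are therefore given for all 8 arrays and, where the value or call moved, with Y-linked signal as a blocking factor (the Y block), or on the 5 arrays that have the signal (the Y-positive arrays). All 7 proximal tubule markers and all 5 thick ascending limb markers were above background on all arrays, as were 5 of 6 distal and collecting duct markers. These bear out kidney tissue and do not tell a whole kidney from a part of it.

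Most ER genes were lower in cinacalcet kidneys by small amounts, and few passed the test. Of the 35 genes 29 had negative fold changes, where 54.6% of all genes tested did, and their median was -0.26 against -0.03 for all genes. Of the 35, 2 fell, the chaperone gene Hsp90b1 by 0.45 and the cochaperone gene Dnajc3 by 0.31, and none rose. Across all genes 8.02% were called, 4.65% lower and 3.37% higher, so the count of calls among the ER genes was near the background. At an unadjusted p under 0.05, 13 members were lower and 1 higher, where 16.3% and 11.6% of all genes were. The 2 groups of arrays did not overlap in 9 members, 8 of them lower with cinacalcet and 1, Ppp1r15a, higher, where 9.80% of all genes were separated lower and 8.01% higher. On the 8 arrays sizes were small, since no member differed by more than 1.46-fold on the probe used for it. A dimmer probe of Pdia6 and a dimmer probe of Ssr1 differed by more, as given below. On the Y-positive arrays so did Chac1, at a log2 fold change of -0.91, which passed. Sdf2l1 (-0.80), Pdia6 (-0.66), Manf (-0.62) and Creld2 (-0.57) also did there, and did not pass. With the Y block Sdf2l1 was at -0.66 and did not pass. Some values with single arrays left out, or within the arrays without Y-linked signal, were larger too. In these bulk samples, fewer cells of a type and less RNA per cell cannot be told apart.

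The split by Y-linked signal moved these counts. With the Y block 6 members fell, namely Ddit3, Dnajb11, Dnajc3, Edem1, Hsp90b1 and Trib3, and Ppp1r15a rose, where 17.0% of all genes were called, 10.4% lower and 6.65% higher. On the 5 Y-positive arrays Chac1 fell by 0.91 (adjusted p = 0.0397) and no other member passed, where 7.86% of all genes were called, 5.46% lower and 2.40% higher. In that fit 29 members were again negative, with a median of -0.35.

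**Figure D1:**
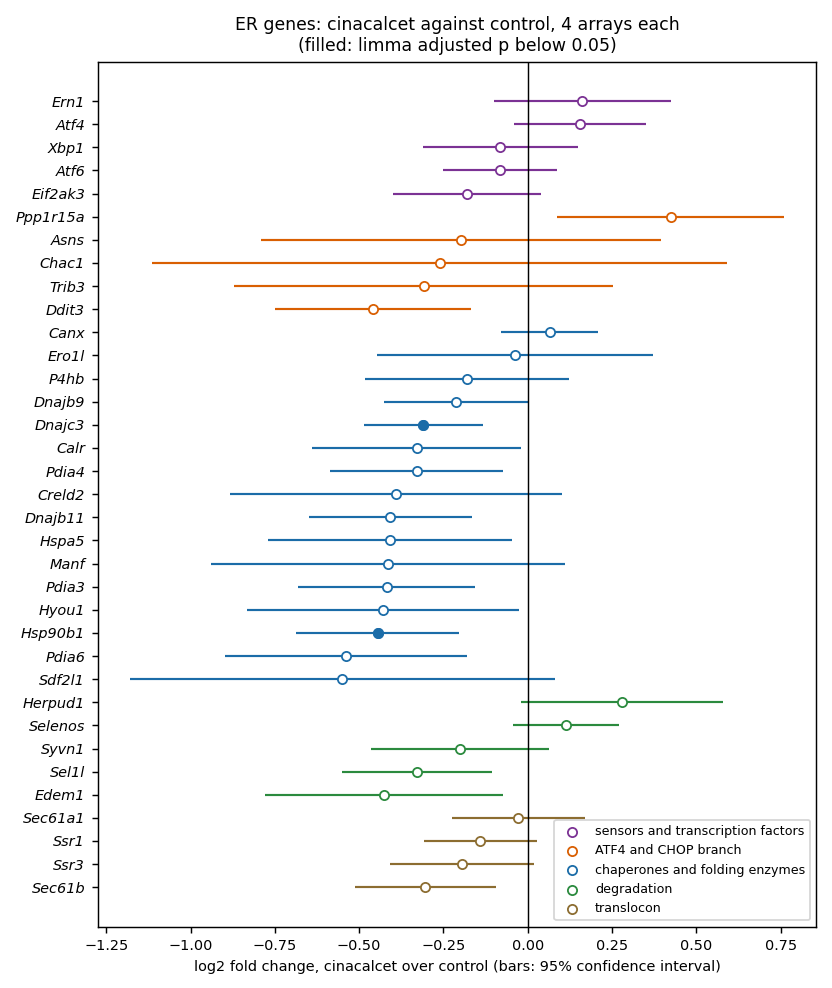
Log2 fold change (cinacalcet over control, 4 arrays each) of all 35 ER genes by role, with bars for limma's 95% confidence interval and filled points for an adjusted p under 0.05. The 16 chaperones and folding enzymes lie at or below 0 except Canx at 0.06, and the 2 filled points are Hsp90b1 at -0.45 and Dnajc3 at -0.31.

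RefSeq promoter windows of GRCm38.p6, from 250 bases before to 50 after the start site, were found for 31 of the 35 genes. None is listed for Atf6, Manf, Hyou1 and Sec61a1. The ER stress response element (ERSE), to which ATF6 binds together with NF-Y, was searched on both strands as CCAAT and CCACG with 9 bases between them, after the expression values had been seen. It was in 37 of 27025 genes with a window, 0.137% of them, and in 8 of the 31 members. These sites are shown because the chaperone genes with the best-known ATF6 elements are among the members whose values the results turn on. Each is given 5′ to 3′ along the strand on which the motif reads, with 8 flanking bases, the ERSE in capitals, its spacer included, and the coordinates of the printed stretch.
Hspa5, chr2:34772017-34772051, plus strand: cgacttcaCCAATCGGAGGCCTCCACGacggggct
Hsp90b1 far site, chr10:86705630-86705664, minus strand: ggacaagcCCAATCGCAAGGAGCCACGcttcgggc
Hsp90b1 near site, chr10:86705525-86705559, plus strand: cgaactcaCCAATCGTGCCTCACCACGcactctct
Dnajc3, chr14:118937819-118937853, plus strand: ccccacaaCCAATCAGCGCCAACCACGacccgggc
Pdia6, chr12:17266483-17266517, plus strand: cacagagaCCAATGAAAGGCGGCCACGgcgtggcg
Creld2, chr15:88819512-88819546, minus strand: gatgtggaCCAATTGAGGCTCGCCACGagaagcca
Calr, chr8:84847067-84847101, plus strand: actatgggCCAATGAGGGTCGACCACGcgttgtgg
Canx, chr11:50325792-50325826, minus strand: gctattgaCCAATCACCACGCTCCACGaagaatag
Syvn1, chr19:6046524-6046558, plus strand: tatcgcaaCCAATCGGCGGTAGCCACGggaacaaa

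The ERSE centres lay at positions -203 to -35 relative to the start site. Hsp90b1 held 2 sites, centred at -203 and -98 and reading in opposite directions. Both genes that fell, Hsp90b1 and Dnajc3, held an ERSE, and so did Canx, the one chaperone gene with a positive fold change. The 250 bases before the start of Hsp90b1 and of Canx are printed for that contrast, on the gene's own strand, with the ERSE in capitals.
Hsp90b1, chr10:86705445-86705694, minus strand: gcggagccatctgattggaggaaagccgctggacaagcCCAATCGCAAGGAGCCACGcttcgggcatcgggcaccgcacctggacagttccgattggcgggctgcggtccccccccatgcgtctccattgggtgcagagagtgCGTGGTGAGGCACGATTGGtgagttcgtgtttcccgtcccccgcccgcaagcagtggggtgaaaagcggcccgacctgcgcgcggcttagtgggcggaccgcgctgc
Canx, chr11:50325674-50325923, minus strand: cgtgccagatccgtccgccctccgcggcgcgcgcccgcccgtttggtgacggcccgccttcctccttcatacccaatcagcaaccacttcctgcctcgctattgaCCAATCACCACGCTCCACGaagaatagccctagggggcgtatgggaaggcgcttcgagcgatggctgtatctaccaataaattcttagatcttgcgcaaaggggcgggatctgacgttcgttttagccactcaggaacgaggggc

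A related element, ERSE-II, was searched as ATTGG and CCACG with 1 base between them and was in 12 of the 27025 genes, 0.0444% of them, and in 2 members. The element bound by ATF4 with C/EBP partners, named CARE, was searched as TGATGNAAN and was in 1215 genes, 4.50% of them, and in 4 members. In these windows the ATF4 branch genes Trib3, Asns and Chac1 held a CARE, Ddit3 and Ppp1r15a did not, and Herpud1 alone held both kinds. A site outside the windows would not have been found. The sites are shown for comparison with the values of these genes, with the motif again in capitals. Both searches covered both strands, and no overlap between the motifs was found in these genes.
Dnajb11 ERSE-II, chr16:22857844-22857870, plus strand: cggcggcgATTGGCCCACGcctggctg
Herpud1 ERSE-II, chr8:94386369-94386395, plus strand: gggcgctgATTGGGCCACGttggacac
Herpud1 CARE, chr8:94386308-94386332, minus strand: gtgcgggcTGATGCAACccgccgtg
Trib3 CARE, chr2:152344031-152344055, plus strand: cgcccggcTGATGTAAAcctgagct
Asns CARE, chr6:7693216-7693240, minus strand: cagccacaTGATGAAACttcccgca
Chac1 CARE, chr2:119351040-119351064, minus strand: ggcaggagTGATGCAACggcaggga

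The XBP1 element searched as TGACGTGG was in 193 genes, 0.714% of those with a window, and in 0 members, which says only that these letters are not in these windows. The 10 members with an ERSE or ERSE-II had a median fold change of -0.36, and 8 were negative. The 21 members with a window and neither element had a median of -0.20, and 17 were negative. These 2 sets differ in role, since 8 of the 10 and 6 of the 21 are chaperones and folding enzymes. Among those alone, the 8 with an element had a median of -0.40, with 7 negative. The 6 with neither had a median of -0.27, with 6 negative. Whether the elements bear on the fold changes was not tested. The 10 measured genes outside the set with an ERSE had a median of -0.03, with 6 negative. A match of letters is a description of the sequence and not evidence of binding in these kidneys.

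**Figure D2:**
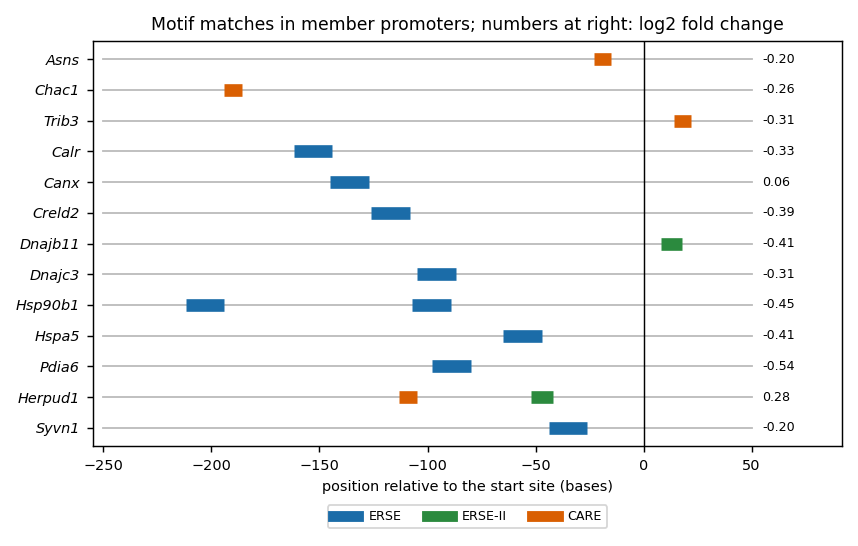
Positions of ERSE, ERSE-II and CARE matches (bars) in the promoter windows of the 13 members that hold one, in bases from the start site, with each gene's log2 fold change at the right. ERSE matches lie upstream of the start site in all 8 genes that hold them, while the Dnajb11 and Trib3 matches lie just after it.

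Among the sensors and transcription factors none passed the test, and their median fold change was -0.08 with 3 of 5 negative. The groups overlapped in all 5. Eif2ak3, which encodes the sensor kinase PERK, was at 1.21, 1.52, 1.50 and 1.48 on the control arrays and at 1.26, 1.34, 1.29 and 1.09 on the cinacalcet arrays, each set in replicate order. Control 1 lay below 3 of the cinacalcet arrays and the other controls lay above all 4. Its fold change was -0.18 with a standard error of 0.095 (adjusted p = 0.255).

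Atf4, the transcription factor whose translation rises when PERK is active, was at 5.80, 5.96, 5.96 and 5.72 in controls and at 6.09, 5.95, 6.10 and 5.92 with cinacalcet. Cinacalcet 1 and 3 were above every control and the other 2 were within their range. Its fold change was 0.16 ± 0.085 (SE, n = 4 and 4, adjusted p = 0.271), and a second, dimmer Atf4 probe gave 0.19. Xbp1, the substrate of IRE1, was at 5.57, 5.70, 5.61 and 5.54 in controls and at 5.51, 5.64, 5.68 and 5.27 with cinacalcet. Cinacalcet 4 was the lowest of the 8 arrays and the others mixed with the controls. Its fold change was -0.08 ± 0.10 (SE, n = 4 and 4, adjusted p = 0.630).

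The other sensors were Atf6 at -0.08 (adjusted p = 0.492) and Ern1, which encodes IRE1, at 0.16 (adjusted p = 0.385). Ern1 ranged from 0.72 to 0.78 on controls 1 to 3 and stood at 1.17 on control 4, above all cinacalcet arrays, which ranged from 0.90 to 1.12. Without control 4 its fold change was 0.27 and it rose (adjusted p = 0.0349), in a fit where 23.6% of all genes were called in either direction. Within the arrays that have Y-linked signal the Ern1 fold change was 0.33, and within the 3 others, with 1 control array, it was -0.22. A test of that difference did not pass (adjusted p = 0.308).

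Of the 21 other regulators of the response that were measured, 1 rose and none fell, where 3.37% of all genes rose and 4.65% fell. The count of calls was thus near the background. The gene that rose was Mapk8, the stress kinase gene for JNK, at 0.72 (adjusted p = 0.0369). In the Y block fit Mapk8 and the kinase gene Map3k5 rose, where 6.65% of all genes did. On the Y-positive arrays only Atf6b, a relative of Atf6, passed, lower by 0.53 (adjusted p = 0.0306), where 5.46% of all genes fell.

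The ATF4 and CHOP branch did not move as a unit. Its 5 genes had a median of -0.26, with 4 negative, and none passed on the 8 arrays. That median rested on single arrays, since it was 0.016 without cinacalcet 4, -0.09 without control 4 and -0.45 without cinacalcet 3, and it was -0.47 with the Y block. Ddit3, the gene for the transcription factor CHOP, was at 0.41, 0.73, 0.80 and 0.94 in controls and at 0.17, 0.47, 0.25 and 0.15 with cinacalcet. The groups overlapped only because control 1 lay below cinacalcet 2. The fold change was -0.46 ± 0.13 (SE, n = 4 and 4, adjusted p = 0.0636). With the Y block Ddit3 fell by 0.52 (adjusted p = 0.0176), and within the arrays with and without that signal the values were -0.49 and -0.58.

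Ppp1r15a, which encodes GADD34, the subunit that directs a phosphatase to eIF2α and so restores translation, lay the other way. Its controls were at 2.19, 2.14, 2.18 and 2.30 and its cinacalcet arrays at 2.41, 2.95, 2.83 and 2.32. All 4 cinacalcet arrays were above all controls, though cinacalcet 4 exceeded control 4 only narrowly, and the 2 highest arrays were the 2 without Y-linked signal. The difference was 0.42 ± 0.15 (SE, n = 4 and 4, adjusted p = 0.109). With the Y block it rose by 0.33 (adjusted p = 0.0448), and on the Y-positive arrays it was at 0.19 (adjusted p = 0.142).

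The 3 other genes of this branch are metabolic or regulatory ATF4 targets, and each varied more within a group than between groups. Chac1, a glutathione-degrading enzyme, was within -0.33 to -0.17 on the 4 controls and at -0.97, -0.15, 0.45 and -1.47 on the cinacalcet arrays. The 2 cinacalcet arrays with Y-linked signal were the lowest of the 8 and the 2 without were the highest. Its fold change was -0.26 over all arrays (adjusted p = 0.680), -0.91 on those with the signal and 0.32 on the 3 without, and the difference between the 2 did not pass (adjusted p = 0.319).

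Asns, asparagine synthetase, ranged from 0.84 to 1.49 in controls and from 0.29 to 1.48 with cinacalcet (fold change -0.20, adjusted p = 0.653). Trib3, a pseudokinase induced by ATF4 and CHOP, ranged from -0.79 to 0.23 in controls and from -1.02 to -0.31 with cinacalcet (fold change -0.31, adjusted p = 0.443). With the Y block Trib3 fell by 0.48 (adjusted p = 0.0312). These genes followed the split by Y-linked signal itself. With treatment in the fit, arrays with that signal were lower than those without by 0.67 for Trib3 (adjusted p = 0.00967), by 0.67 for Asns (adjusted p = 0.0189) and by 0.35 for Ppp1r15a (adjusted p = 0.0387), where 8.31% of all genes were lower. Control 4 was the highest control array in 5 of these 5 genes.

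Of the 25 other ATF4 targets measured, 2 rose and none fell, with a median of 0.02, where 3.37% of all genes rose and 4.65% fell. Cebpb, a transcription factor that partners ATF4, rose 2.15-fold (adjusted p = 0.0113), and Psat1, an enzyme of serine synthesis, rose by 0.65 on the log2 scale (adjusted p = 0.0203). Both passed with the Y block, and Ddit4, an inhibitor of mTORC1 signalling, also rose (1.22, adjusted p = 0.0192), where 6.65% of all genes rose. On the Y-positive arrays Cebpb alone passed, where 2.40% of all genes rose.

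**Figure D3:**
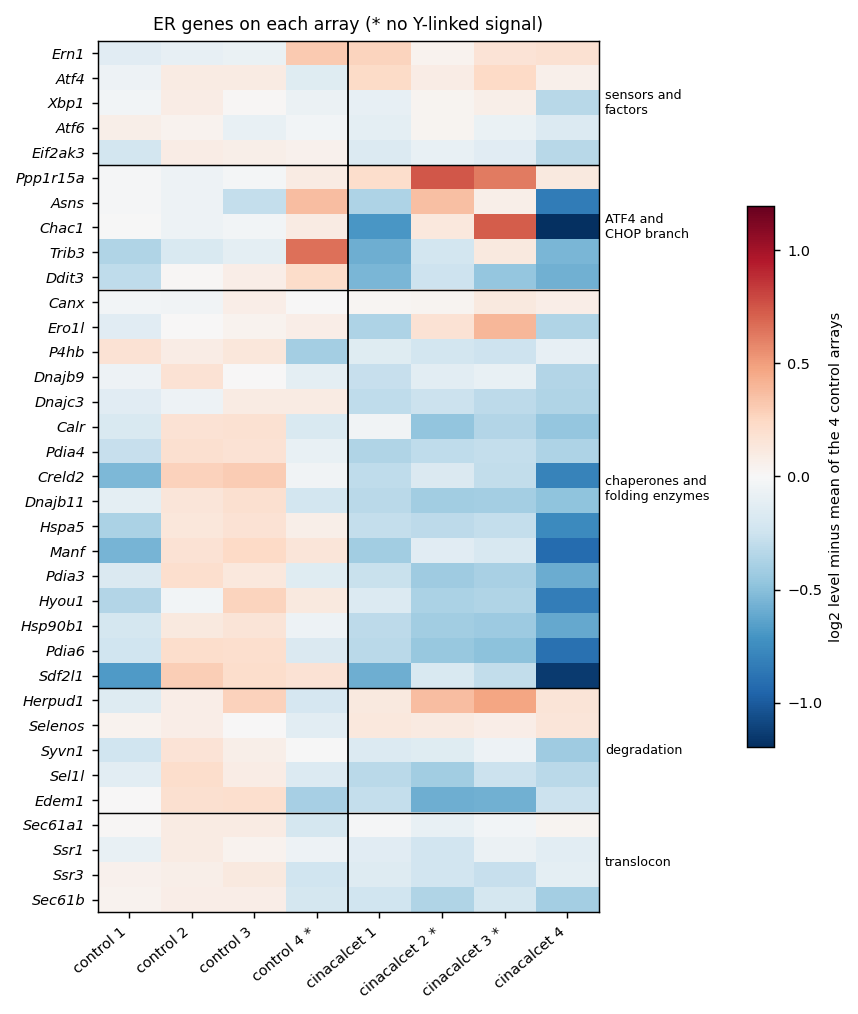
Level of each of the 35 ER genes on each of the 8 arrays, coloured by log2 difference from the mean of the 4 control arrays, with asterisks on the 3 arrays without Y-linked signal. Most chaperone rows are blue on all 4 cinacalcet arrays and darkest on cinacalcet 4, and Ppp1r15a and Herpud1 are red on all 4.

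The chaperones and folding enzymes held both genes that fell. Of the 16, 15 had negative fold changes, with a median of -0.40 and a range from -0.55 to 0.06. The 2 calls compare with 4.65% of all genes called lower. The groups did not overlap in 6 of them, 37.5%, all lower with cinacalcet (Hsp90b1, Dnajb11, Dnajc3, Pdia3, Pdia4 and Pdia6), where 9.80% of all genes were separated lower. At an unadjusted p under 0.05, 9 were lower, where 16.3% of all genes were.

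Hsp90b1 encodes GRP94, the HSP90-type chaperone of the ER that folds integrins and Toll-like receptors. It was at 5.23, 5.55, 5.60 and 5.38 in controls and at 5.12, 5.02, 5.00 and 4.83 with cinacalcet. The groups did not overlap, and control 1 and cinacalcet 1 lay nearest each other. It fell 1.36-fold, by 0.45 ± 0.11 on the log2 scale (SE, n = 4 and 4, adjusted p = 0.0421). It was called without control 4 or without cinacalcet 1, where 23.6% and 6.78% of all genes were called. It lost its call without any 1 of the 6 other arrays (adjusted p up to 0.120).

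Dnajc3 encodes an ER cochaperone that works with the HSP70-type chaperone BiP and was described as an inhibitor of PERK. It was at 2.35, 2.43, 2.58 and 2.59 in controls and at 2.18, 2.23, 2.17 and 2.13 with cinacalcet. All 4 cinacalcet arrays lay close together below all controls. It fell 1.24-fold, by 0.31 ± 0.077 on the log2 scale (SE, n = 4 and 4, adjusted p = 0.0481). The call held without control 4, where 23.6% of all genes were called, and was lost without any other single array (adjusted p up to 0.140). Within the arrays with and without Y-linked signal the fold changes were -0.30 and -0.39 for Dnajc3 and -0.48 and -0.37 for Hsp90b1.

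Hspa5 encodes BiP, the main HSP70-type chaperone of the ER and the protein that keeps the sensors inactive. It was at 6.19, 6.70, 6.74 and 6.63 in controls and at 6.28, 6.25, 6.28 and 5.81 with cinacalcet. Control 1 was below 3 of the cinacalcet arrays, while the other 3 controls were above all of them. The fold change was -0.41 ± 0.16 (SE, n = 4 and 4, adjusted p = 0.138), with an interval from -0.77 to -0.05. Its value was -0.50 within the arrays with Y-linked signal and -0.37 within the others.

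The disulfide isomerases Pdia3, Pdia4 and Pdia6, which form and rearrange disulfide bonds, were lower on every cinacalcet array than on every control and did not pass. Pdia3, which acts on glycoproteins with calnexin and calreticulin, ranged from 3.52 to 3.89 in controls and from 3.09 to 3.43 with cinacalcet (fold change -0.42, adjusted p = 0.0617). Pdia4 ranged from 1.61 to 2.08 and from 1.52 to 1.60 (fold change -0.33, adjusted p = 0.104). Pdia6, which also binds BiP, ranged from 5.54 to 5.99 and from 4.90 to 5.46 (fold change -0.54, adjusted p = 0.0713). A second, dimmer Pdia6 probe gave -0.69 and passed when adjusted over all kept probes (adjusted p = 0.0352). The fourth isomerase, P4hb, was at -0.18 (adjusted p = 0.407), with control 4 at 4.55 below all cinacalcet arrays and the other controls above them.

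Dnajb11, a BiP cochaperone that binds unfolded substrates, ranged from 3.57 to 3.98 in controls and from 3.30 to 3.46 with cinacalcet (fold change -0.41, adjusted p = 0.0538). With the Y block it fell by 0.38 (adjusted p = 0.0429). A second Dnajb11 probe was above background on no array. Dnajb9, a cochaperone that restrains IRE1, was at -0.21 (adjusted p = 0.180), and its dimmer probe was at -0.07.

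The other luminal genes of this group did not pass and their groups overlapped. Sdf2l1, part of a BiP complex, had the largest difference among the 35 genes at -0.55, with a standard error of 0.27 (adjusted p = 0.231). Hyou1, the exchange factor of BiP, was at -0.43 (adjusted p = 0.159), Manf, a secreted ER stress protein, at -0.41 (adjusted p = 0.275), and Creld2, a putative isomerase, at -0.39 (adjusted p = 0.272). Sdf2l1, Manf and Creld2 shared a pattern in which control 1 was far below the other controls and cinacalcet 4 far below the other cinacalcet arrays. Sdf2l1 stood at 0.14 on control 1 and at 0.99 to 1.11 on the others, and at -0.32 on cinacalcet 4 and 0.23 to 0.64 on the others. Over the 16 genes, control 1 was the lowest control in 12 and cinacalcet 4 the lowest cinacalcet array in 12.

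The lectin chaperones of glycoprotein folding differed from each other in value. Calr, the gene for the soluble calreticulin, was at -0.33 with an interval from -0.64 to -0.02 (adjusted p = 0.159). Canx, the gene for its membrane-bound relative calnexin, was at 0.06 with an interval from -0.08 to 0.21 (adjusted p = 0.531). The difference between the 2 genes was not tested. Ero1l, named Ero1a in RefSeq, supplies oxidising power to the isomerases and was at -0.04 (adjusted p = 0.908). Its cinacalcet values split by Y-linked signal, at -3.45 and -3.44 with it and at -2.91 and -2.69 without it.

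Averaged over the 16 genes, deviations from each gene's 8-array mean were -0.08, 0.29, 0.33 and 0.12 on the controls and -0.11, -0.09, -0.08 and -0.39 on the cinacalcet arrays. Control 1 was thus level with cinacalcet 3, and cinacalcet 4 was the lowest. The same mean over all genes tested stayed between -0.0274 and 0.0325 on every array. The chaperone median was -0.46 on the arrays with Y-linked signal, with 15 of 16 negative, and -0.25 on the 3 without, with 12 of 16 negative.

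Markers of some other cell types were also lower in the cinacalcet group, where 4.65% of all genes fell. All 5 macrophage and dendritic cell markers fell, and their summed level, in multiples of the array's 75th percentile, was 36.7 to 39.7 in controls and 22.9 to 29.1 with cinacalcet. All 4 red blood cell genes fell, with sums of 571 to 831 and 105 to 358. Of 7 plasma and B cell markers 4 were above background on all arrays and Ms4a1 on none, none passed, and the sums were 2.81 to 8.40 and 2.55 to 5.21. Of 5 fat cell markers 1 fell, the brown fat gene Ucp1, at -5.73 (adjusted p = 0.0140), the lowest fold change of all genes tested, with 2 of 4 cinacalcet arrays above background. The fat markers summed to 19.8 to 152 in controls and 4.94 to 73.7 with cinacalcet. The 7 proximal tubule markers summed to 2418 to 3332 and 1387 to 2854, and none passed. On the Y-positive arrays 3 of 5 macrophage markers, 3 of 4 red blood cell genes, Ucp1 and the proximal tubule gene Slc22a6 were lower, and the Y block called all 5 and all 4 with Ucp1 and Slc22a6. The part of these cell types in the chaperone values was not tested.

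Of all genes tested 4.65% fell, 3.37% rose and 54.6% were negative. Of 23 other ER folding and glycoprotein genes 3 fell and none rose, with 18 negative and a median of -0.17. They were Pdia5, a disulfide isomerase (-0.58, adjusted p = 0.0268), Cnpy2, an ER-resident saposin-like protein (-0.48, adjusted p = 0.0307), and Mlec, the glycan-binding malectin (-0.64, adjusted p = 0.0304). Of 24 measured chaperones of the cytosol 1 fell and none rose, with 23 negative, a median of -0.24 and 6 separated lower. The 1 call was near the background of 4.65%. The 6 of 24 separated lower were a larger share than the 9.80% of all genes that were. The cytosolic gene that fell was Chordc1, a cochaperone of cytosolic HSP90 (-0.72, adjusted p = 0.0427). The Y block added to the ER list Mogs, a glucosidase of glycan trimming, for 4 lower genes in all, and to the cytosolic list Hsph1, for 2 in all. With that block 10.4% of all genes fell. On the Y-positive arrays Pdia5 and Mlec passed in the first list and 0 genes in the second, where 5.46% of all genes fell. In that fit 16 of the 24 cytosolic genes, and 2873 of all 14205 genes, were lower at an unadjusted p under 0.05 in limma. Whether the ER and cytosolic chaperones differ was not tested.

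**Figure D4:**
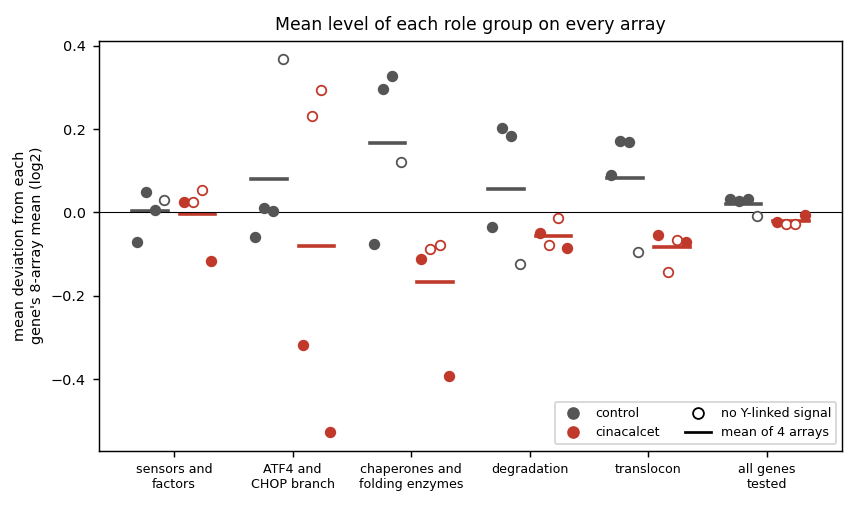
Mean log2 deviation of the genes of each role group from their 8-array means on every array, with lines for the mean of 4 arrays and open circles for arrays without Y-linked signal. The chaperone points run from -0.39 to 0.33 with control 1 and cinacalcet 3 level at -0.08, the open circles are the highest of their group for ATF4 and CHOP, and all genes tested stay near 0.

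The degradation genes gave mixed directions, with 3 of 5 negative, a median of -0.20 and none past the test. Sel1l, the adaptor that brings substrates to the ubiquitin ligase HRD1, was at 1.23, 1.56, 1.44 and 1.18 in controls and at 1.03, 0.94, 1.09 and 1.03 with cinacalcet. All 4 cinacalcet arrays were below all controls. Its fold change was -0.33 ± 0.097 (SE, n = 4 and 4, adjusted p = 0.0749).

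Edem1, a lectin that hands misfolded glycoproteins to degradation, was at 2.16, 2.35, 2.36 and 1.76 in controls and at 1.87, 1.57, 1.58 and 1.90 with cinacalcet. Control 4 lay among the cinacalcet arrays, and in each group the arrays without Y-linked signal were the lowest. Its fold change was -0.43 ± 0.15 (SE, n = 4 and 4, adjusted p = 0.119). With the Y block Edem1 fell by 0.32 (adjusted p = 0.0308). Arrays with Y-linked signal were higher by 0.40 with treatment in the fit (adjusted p = 0.0142), where 10.7% of all genes were higher.

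Herpud1, a membrane scaffold of the degradation complex, was the second highest fold change of the 35 at 0.28 ± 0.13 (SE, n = 4 and 4, adjusted p = 0.208). It ranged from 5.87 to 6.34 in controls and from 6.19 to 6.54 with cinacalcet. Its value was 0.07 within the arrays with Y-linked signal and 0.62 within the others (adjusted p of the difference = 0.376). Syvn1, the gene for HRD1 itself, was at -0.20 (adjusted p = 0.294), and Selenos, a selenoprotein of the same complex, at 0.11 (adjusted p = 0.319). Of 19 other degradation genes none passed in either direction in limma, and 4 were lower at an unadjusted p under 0.05, where 16.3% of all genes were. The lowest fold change of the 19 was -1.02, for the derlin gene Derl3 (adjusted p = 0.0591). Under the Y block 3 of the 19 fell, where 10.4% of all genes did, namely the derlin genes Derl1 (-0.39), Derl2 (-0.38) and Derl3 (-1.15), whose products move substrates out of the ER. On the Y-positive arrays Derl1 alone passed (-0.51, adjusted p = 0.0410), where 5.46% of all genes fell.

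All 4 translocon genes were negative, with a median of -0.17, and none passed. Sec61b, a small subunit of the Sec61 channel, was at 5.91, 5.95, 5.95 and 5.65 in controls and at 5.62, 5.50, 5.65 and 5.46 with cinacalcet. The groups did not overlap, but control 4 and cinacalcet 3 were nearly equal. This gave a fold change of -0.30 ± 0.091 (SE, n = 4 and 4, adjusted p = 0.0776), and a second probe gave -0.28.

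Ssr3, a subunit of the complex that assists the channel, was at 4.25, 4.27, 4.32 and 3.97 in controls and at 4.04, 3.98, 3.92 and 4.08 with cinacalcet. Control 4 was within the cinacalcet range and the other controls were above it. The fold change was -0.20 ± 0.093 (SE, n = 4 and 4, adjusted p = 0.213), and a second probe gave -0.19. Ssr1, of the same complex, was at -0.14 (adjusted p = 0.247), but its 2 dimmer probes disagreed, at -0.60 and -0.11, and the first of these passed over all kept probes (adjusted p = 0.0412). Sec61a1, the pore of the channel, was at -0.03 (adjusted p = 0.858), a sign that turned with quantile normalization, with normexp correction and with the Y block. Control 4 was the lowest control in 3 of the 4 genes. Of 28 other translocon and signal peptide genes none passed, 23 were negative and the median was -0.16. At an unadjusted p under 0.05 in limma 6 of the 28 were lower and 1 higher. Of all genes 54.6% were negative, and 16.3% were lower and 11.6% higher at that unadjusted p. On the Y-positive arrays 1 of the 28 fell, the signal peptidase gene Sec11c (-0.45, adjusted p = 0.0404), where 5.46% of all genes did.

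The size of the cinacalcet difference within each set of arrays was compared directly. With Y-linked signal 29 of the 35 genes were negative, with a median of -0.35, and without it 23 were, with a median of -0.16, and 22 were negative in both. The 8 genes of opposite sign were Atf6, Ern1, Xbp1, Chac1, Dnajb9, P4hb, Ero1l and Sec61a1. No member's difference passed (adjusted p of 0.308 to 0.977), and none of the 14205 genes did, with 1812 at an unadjusted p under 0.05. The 3 arrays without Y-linked signal include only 1 control, so these values rest on that array.

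**Figure D5:**
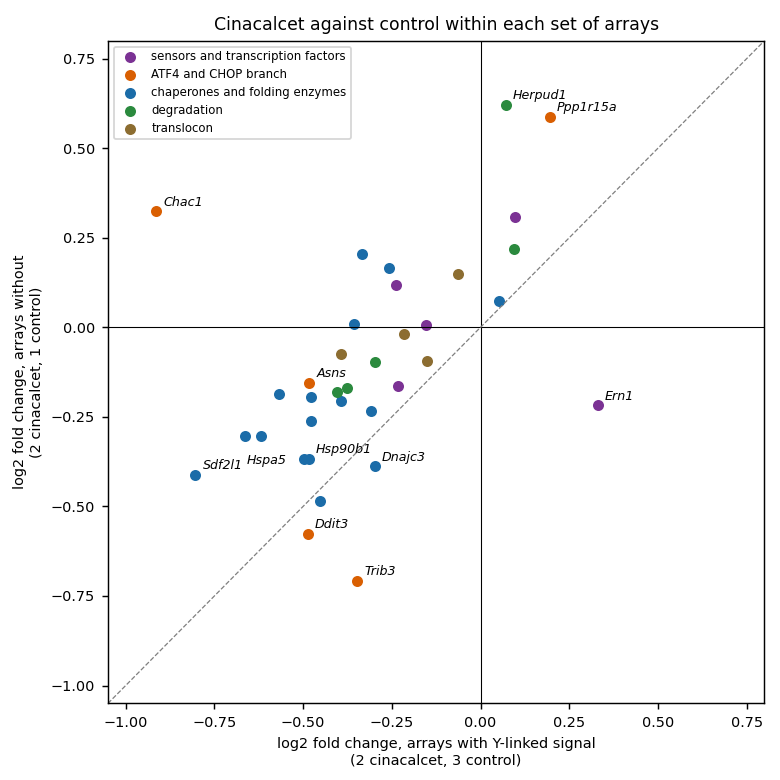
Log2 fold change of each ER gene on the 5 arrays with Y-linked signal (horizontal) against that on the 3 arrays without it (vertical), coloured by role, with a dashed line of equality. Of the 35 points 22 lie at lower left, Chac1 is at -0.91 and 0.32, and Ern1 is at 0.33 and -0.22.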

How the data were processed

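The authors deposited 1 scanner file per array for 8 one-colour Agilent arrays, with spot intensity on a linear scale that was background-corrected by Agilent Feature Extraction 11.0.1.1, per the file headers. The submitters' processing notes name version 9.5. The array's annotation gives accessions, which were named through RefSeq (GRCm38.p6), with 27217 of 55650 probes named. On each array 51.8% to 58.0% of spots exceeded background clearly and none was saturated. With 4 arrays in each group, precision is limited.

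Outlier spots and control spots were left out and spots of a probe averaged. Intensity was converted to log2 and each array's 75th percentile subtracted. The brightest kept probe stood for its gene. limma 3.58.1 in R 4.3.3 compared the groups, without covariates, with Benjamini-Hochberg adjustment. On simulated data for this comparison over 14205 genes it recovered 30% of genes changed by 0.5 and 78% of those changed by 1 on the log2 scale.

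The members, gene lists and tests were chosen with earlier results of these data known. Values on every array are given for members past an adjusted p of 0.05, for the 2 of lowest p in each role group, and for Hspa5, Xbp1, Atf4 and Ddit3. Genes outside the set are named where they passed the test, in any of the 3 fits, and Derl3 and Ucp1 were singled out after their values were seen. Alternatives were other scalings, background corrections, filters, probe rules, moderation, array weights, blocks and single arrays left out. The file headers place all arrays on 1 slide scanned together, which leaves no slide or scan batch to test. Replicate numbers did not pair the samples, with same-number correlations of -0.565 to 0.337. One marker of the plasma and B cell list is not reported here.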

Additional observations from a re-analysis of the deposited data

Results flagged for a closer look

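Within each group of 4 arrays, a value was singled out where its gap to the nearest other array exceeded Dixon's 95% critical value as a share of the group's range. This happened in 7 of 70 groups (35 genes, 2 groups each), where chance alone gives about 1 in 20, and genes on one array are not independent.

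Control 1 was low in 3 genes, at 1.21 for Eif2ak3 against 1.48 to 1.52 on the other controls, at 0.14 for Sdf2l1 against 0.99 to 1.11, and at 2.52 for Manf against 3.22 to 3.32. Control 4 was low for P4hb, at 4.55 against 5.05 to 5.13, and for Sec61b, at 5.65 against 5.91 to 5.95. It was high for Ern1, at 1.17 against 0.72 to 0.78. Control 4 lacks Y-linked signal. Cinacalcet 4 was low for Hspa5, at 5.81 against 6.25 to 6.28 on the other cinacalcet arrays.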

How the results depend on the processing

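Directions were steadier than calls. Of the 29 negative members 24 were negative in every setting run, and 18 of the 35 members were never called. Members called lower numbered 2 on the 8 arrays, 0 with quantile normalization, with a filter of at least 1 array above background or with no filter, 4 with slide row as a block, 5 with trend and robust eBayes, 6 with Y-linked signal as a block, 13 with array weights and 1 when only the Y-positive arrays were fitted. Members called higher numbered 0 on the 8 arrays, 2 with array weights and 1 with the Y-linked block. Of all genes 1139 were called on the 8 arrays (8.02%), and 367 (1.78%) with no filter, which tests more genes. Array weights called 5437 (38.3%), so the member counts with array weights were near the background. The Y-linked block called 2418 (17.0%). The share was 10.0% with quantile normalization, 5.27% with the filter of at least 1 array and 6.48% with the slide row block. It was 9.70% with trend and robust eBayes and 7.86% on the Y-positive arrays. Leaving out single arrays gave 219 to 3356 genes (1.54% to 23.6%), 0 to 10 members lower and 0 to 1 higher. The highest counts came without control 4.

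Replicate number as a block left 0 genes in limma, with 2869 at an unadjusted p under 0.05, and 0 members, with 10 lower and 2 higher unadjusted. The numbers do not pair the samples. The median of the sensors moved from -0.08 to -0.0086 with quantile normalization and to -0.15 in the Y-positive arrays, and ranged from -0.12 to 0.0028 with single arrays left out. The median of the ATF4 and CHOP genes ranged from -0.45 to 0.016 with single arrays left out and was 0.026 with array weights. Sec61a1 turned to 0.051 (quantile), 0.027 (normexp with the 75th percentile), 0.081 (normexp with quantile) and 0.012 (Y-linked block). With array weights Asns turned to 0.094, Chac1 to 0.026 and Ero1a to 0.080. With single arrays left out Sec61a1 ranged from -0.10 to 0.0051, Ero1a from -0.18 to 0.072, Xbp1 from -0.13 to 0.0028, Asns from -0.38 to 0.016 and Chac1 from -0.59 to 0.050. The cause of these changes was not tested. One scaling, the 75th percentile over averaged probes, was added after seeing the data and gave 2 members lower, where 8.10% of all genes were called. In simulated data effects of 0.5 were mostly missed at 4 arrays per group, and on the 8 arrays 0 of 35 members differed by more than 0.55 in the main setting.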
